A study of Mus musculus with 4 samples.

Results

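The HoxB cluster of the mouse lies on chromosome 11 and holds 10 protein-coding Hox genes, Hoxb1 to Hoxb9 and Hoxb13. These 10 genes were taken by name from the 22380 annotated protein-coding genes. For each gene, every accessible site within 1 kb of an annotated start was collected from 4 lists of open chromatin in limb cells, together with all sites inside the cluster and within 200 kb on either side. The lists came from ATAC-seq, in which the Tn5 transposase inserts adapters where DNA is accessible, and each site was deposited as a summit of 1 bp with the authors' score. Limbs were taken from embryos at E11.5, with forelimb and hindlimb in 1 sample, on a mixed c57bl6.J X 129S6.sv background. Limb cells were separated with trypsin and fixed in 1% PFA in both groups. The first group, called stop cassette here, carried the genotype label Mutant (Stop Cassette Insertion) and 3xpA in its titles, and the second was labelled Wild Type. Each group had 2 libraries with 1 list each. The study concerned Maenli, a lncRNA locus, and En1 in the limb, and the labels give neither position nor zygosity of the cassette. Nothing in the labels says that the libraries of a group came from separate embryos, so p-values measure only the spread between these samples, which may be technical.

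Hox genes encode homeodomain transcription factors that give positional identity to cells along the body axis, and their order on the chromosome follows the order in which they are used from head to tail. HoxA and HoxD genes pattern the limb along its length, whereas HoxB genes are best known from the hindbrain, the spinal cord, the vertebrae and blood progenitors. Silent Hox clusters are typical targets of Polycomb repression, and their starts are often rich in CpG dinucleotides.

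The HoxB starts were mostly without a listed site in limb cells. A summit lay within 1 kb of a start of Hoxb13 in 3 lists, of Hoxb5 in 2 lists and of Hoxb1 in 1 list. The other 7 genes, Hoxb2, Hoxb3, Hoxb4, Hoxb6, Hoxb7, Hoxb8 and Hoxb9, had none in any list. Most summits inside the cluster lay between Hoxb9 and Hoxb4, in introns, exons and intergenic DNA, and those at the Hoxb5 start are among them. No region of neighbouring summits in the cluster was held by all 4 lists.

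Sequences are shown for 4 of the sites that recurred in several lists, 2 inside the cluster, 1 directly before Hoxb13 and 1 in the flank beyond Hoxb1, because the values given for single regions belong to them. Capitals mark 21 bases centred on the summit with the highest score percentile in the region, on the forward strand of mm9. Bases annotated as UTR were left out. The Hoxb6 intron site is the only region of the cluster that was in each stop cassette list and in no wild-type list. The other 3 regions were each in 3 lists, and the last of them is the best ranked one in the flank beyond Hoxb1.
Hoxb13 upstream, chr11:96055481-96055629: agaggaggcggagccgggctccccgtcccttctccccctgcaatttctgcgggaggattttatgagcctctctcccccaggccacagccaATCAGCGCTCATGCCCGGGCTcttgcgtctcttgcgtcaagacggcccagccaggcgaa
Hoxb6 intron, chr11:96155957-96156157: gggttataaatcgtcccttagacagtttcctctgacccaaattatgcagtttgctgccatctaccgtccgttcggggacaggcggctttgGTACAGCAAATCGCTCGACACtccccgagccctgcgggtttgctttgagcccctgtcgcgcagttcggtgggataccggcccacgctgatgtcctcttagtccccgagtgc
Hoxb4 coding exon, chr11:96180351-96180551: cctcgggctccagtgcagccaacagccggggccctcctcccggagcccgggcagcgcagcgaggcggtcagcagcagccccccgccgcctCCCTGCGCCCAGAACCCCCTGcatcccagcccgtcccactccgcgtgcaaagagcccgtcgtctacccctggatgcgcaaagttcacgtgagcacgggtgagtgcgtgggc
Flank beyond Hoxb1, chr11:96300222-96300422: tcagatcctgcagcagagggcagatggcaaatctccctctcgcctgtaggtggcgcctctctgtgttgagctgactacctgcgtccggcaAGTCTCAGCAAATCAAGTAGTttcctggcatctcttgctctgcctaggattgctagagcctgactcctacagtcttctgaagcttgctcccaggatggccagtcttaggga

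The lists held 79083 summits in stop cassette replicate 1, 107827 in stop cassette replicate 2, 51701 in wild type replicate 1 and 68471 in wild type replicate 2. Read counts are not part of the lists, and depth is therefore unknown. The score reads as −log10 of a q-value within its own library, and it was used only as a percentile from the weakest summit (0) to the strongest (100) of its list. In these bulk samples, fewer cells with an open site and less accessibility per cell cannot be told apart. Of 12 limb mesenchyme markers, 11, 10, 7 and 11 had a start summit in stop cassette replicates 1 and 2 and wild type replicates 1 and 2, and Tbx5, which marks the forelimb, had none in any list. Of 4 liver markers, none had a start summit in any list. Of 5 annotated blood markers, 4, 4, 4 and 3 had one, of 5 annotated neural tube markers 3, 4, 4 and 4, of 5 endothelial markers 1, 2, 1 and 1, of 5 muscle precursor markers 2, 4, 1 and 1, of 6 limb ectoderm markers 2, 4, 0 and 2, and of 4 somite and trunk markers 2 in each list. The part of other cell types in the HoxB sites was not tested.

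By gene count, 0, 3, 1 and 2 of the 10 HoxB genes had a start summit in stop cassette replicate 1, stop cassette replicate 2, wild type replicate 1 and wild type replicate 2. Over all protein-coding genes the percentages were 61.5%, 64.4%, 59.0% and 61.5% in the same order. No HoxB gene had a start summit in all 4 lists, against 57.5% of all genes. At least 1 list held a start summit for 3 of 10 HoxB genes and for 65.5% of all genes. The HoxB counts lay below the background in every list. The list with no HoxB start summit was not the shortest one. With all lists reduced to the length of the shortest, neither stop cassette list held a HoxB start summit. The part of list length in these counts was not tested.

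Hoxb13, the gene at the tail end of the cluster and a brake on posterior axis growth, had its summit within the same short stretch in 3 lists. It lay 7 bp upstream of the start in stop cassette replicate 2, 72 bp upstream in wild type replicate 1 and 49 bp upstream in wild type replicate 2. The score percentile was 4.67 in stop cassette replicate 2, 16.0 in wild type replicate 1 and 60.9 in wild type replicate 2. In stop cassette replicate 1 the nearest summit was 48440 bp away. The site ranked higher in both wild-type lists than in stop cassette replicate 2 and was missing from stop cassette replicate 1, and the wild-type values themselves differed widely. Among the annotated starts used for these calls, this was also the only HoxB start with a summit closer than 500 bp.

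Hoxb5, which helps to set the position of the forelimb along the flank, had a summit 609 bp downstream of its start in stop cassette replicate 2 and 662 bp downstream in wild type replicate 2. The percentiles were 50.4 and 39.7. The nearest summit was 7852 bp away in stop cassette replicate 1 and 17131 bp away in wild type replicate 1. The site lies in the Hoxb5 UTR, and also in an intron of the antisense gene 0610040B09Rik, and was held by 1 list of each genotype.

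Hoxb1, which gives a hindbrain segment its identity, had 1 summit, in stop cassette replicate 2, at percentile 19.7. It lay 561 bp from the start of a non-coding transcript of the gene. From the Hoxb1 start in RefSeq, which differs by 6 bp from the M1 annotation, the same summit was 1061 bp away. Hoxb1 therefore had no summit within 1 kb of a start of a protein-coding transcript. Elsewhere its nearest summit lay at 41629 bp in stop cassette replicate 1, 41621 bp in wild type replicate 1 and 11264 bp in wild type replicate 2.

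With absent summits set to 0, the mean percentile over the 4 lists was 22.5 ± 26.4 for Hoxb5, 20.4 ± 27.8 for Hoxb13 and 4.93 ± 9.86 for Hoxb1 (SD, n = 4). These neighbours in the order do not differ beyond their spread. The other 7 genes were at 0 in every list and have no order among themselves.

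Hoxb7 came closest to the distance limit from outside. Its nearest summits lay 1102 bp from a start in stop cassette replicate 2 and 1207 bp in wild type replicate 1, against 6028 bp in stop cassette replicate 1 and 5251 bp in wild type replicate 2. Hoxb8, which is active in the spinal cord and in myeloid progenitors, had nearest summits at 12018, 2634, 2739 and 2899 bp in stop cassette replicates 1 and 2 and wild type replicates 1 and 2. Hoxb9, which acts in the thoracic skeleton and in motor neurons, had them at 19944, 6105, 13941 and 7483 bp in the same order. Hoxb9 was thus the gene whose nearest summit in any list was farthest away.

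Hoxb6, which is known for expression in lateral mesoderm, had nearest summits at 2267, 2177, 7012 and 4302 bp in that order of lists. For Hoxb3, which acts in the hindbrain and has starts spread over much of its length, they were at 4397, 3897, 37862 and 4189 bp. Hoxb2, which acts in hindbrain segments and facial motor neurons, had them at 32703, 1785, 56247 and 2856 bp. In Hoxb2 both replicate 2 lists were far closer than both replicate 1 lists.

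**Figure D1:**
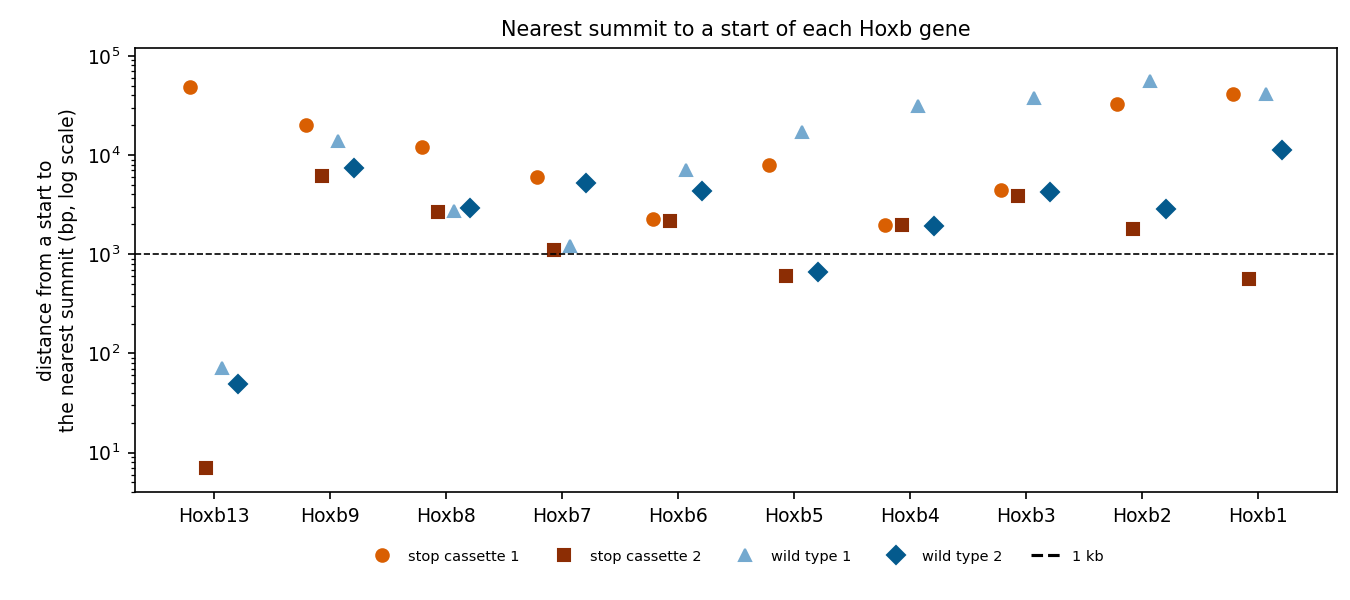
Distance in bp (log scale) from a start of each HoxB gene to the nearest summit, with 1 point per list and a dashed line at 1 kb. Only points of Hoxb13, Hoxb5 and Hoxb1 fall under the line, and Hoxb13 alone lies within 100 bp, at 7 to 72 bp in 3 lists.

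Hoxb4, which acts in the hindbrain and in blood stem cell expansion, depended on the annotation. Its M1 start lies at 96177998, and its nearest summits were 1964, 1986 and 1923 bp away in stop cassette replicates 1 and 2 and wild type replicate 2 and 31220 bp away in wild type replicate 1. The RefSeq promoter of Hoxb4 matched mm9 exactly at 1 place and puts the start at 96179581, which is 1583 bp downstream. Within 1 kb of that position, stop cassette replicate 1 had 2 summits, stop cassette replicate 2 had 1 and wild type replicate 2 had 2, with highest percentiles of 21.6, 53.3 and 57.1. The nearest of these lay 381, 403 and 340 bp from the RefSeq start, in the same order of lists. Wild type replicate 1 had none, its nearest being 32803 bp away. This comparison was added after the values were seen.

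When the first coding base replaced the transcript start, an alternative also chosen after seeing the data, Hoxb4 joined Hoxb1, Hoxb5 and Hoxb13. The counts became 1, 4, 1 and 3 of 10 genes, against 45.9%, 48.6%, 43.1% and 45.4% of all protein-coding genes. At least 1 list then held 4 of 10 HoxB genes and 11117 of 22238, or 50%, of all genes, and all 4 lists held no HoxB gene and 41.3% of all genes.

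**Figure D2:**
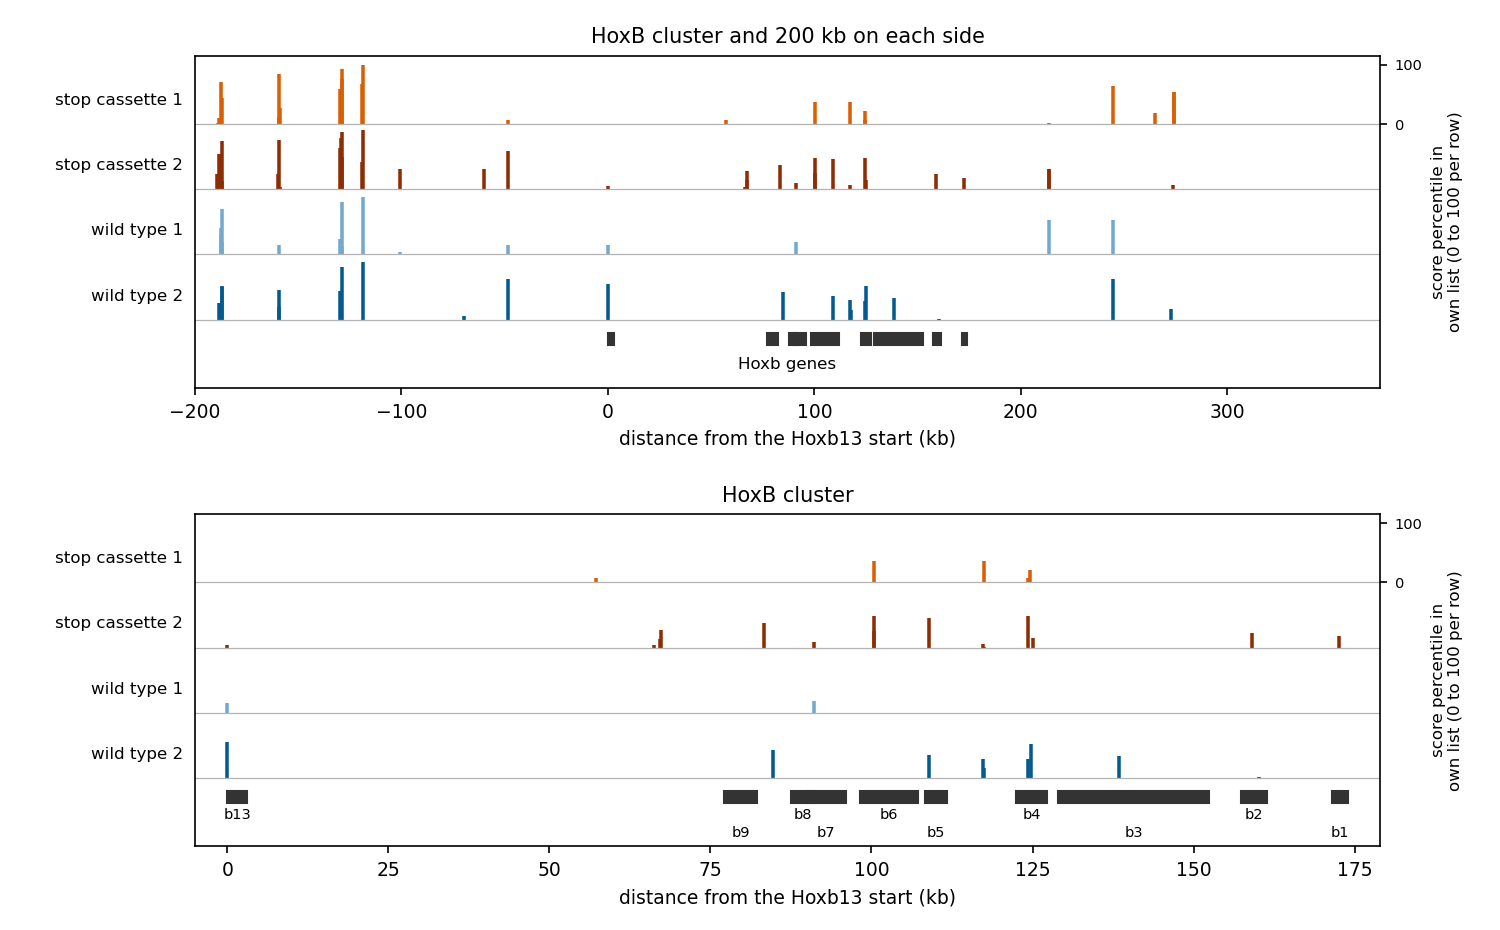
Summits of the 4 lists along the HoxB cluster with its flanks (top) and the cluster alone (bottom), by distance in kb from the Hoxb13 start. Bar height is the score percentile within the list (0 to 100 per row), and dark boxes are the HoxB genes. High bars stand in the flank before Hoxb13, up to 99.9, the bar at the Hoxb13 start reaches 60.9 in wild type replicate 2, and no bar from there to the end of Hoxb1 exceeds 57.1.

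Inside the cluster, between the outer ends of Hoxb13 and Hoxb1 (chr11:96055630-96229570, 173.9 kb), the lists held 5, 14, 1 and 8 summits in stop cassette replicates 1 and 2 and wild type replicates 1 and 2. Per 100000 listed summits this was 6.32 (95% Wilson interval 2.70 to 14.8), 12.98 (7.73 to 21.8), 1.93 (0.341 to 10.96) and 11.7 (5.92 to 23.1), where the intervals cover counting error only. Both replicate 2 lists exceeded both replicate 1 lists, and the genotypes overlapped. The mean was 9.65 ± 4.71 for stop cassette and 6.81 ± 6.89 for wild type (SD, n = 2 each), a difference of 2.84. The two-sided exact permutation test gave p = 0.667, where 2 against 2 libraries cannot go below 0.333. The difference changed sign, to -0.487, without stop cassette replicate 2 and, to -2.03, without wild type replicate 1. It was also negative, at -2.90, when all lists were reduced to the length of the shortest.

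The cluster summits were of low to middle rank. Their median percentile was 21.6 and 22.3 in the stop cassette lists and 20.7 and 34.8 in the wild-type lists. The difference of the means was -5.83, with p = 1 in the exact permutation test, and it was 1.19 without wild type replicate 2. When all lists were reduced to the length of the shortest, it was -16.6, with p = 0.333 in the exact permutation test. The highest single percentile was 57.1, inside Hoxb4 in wild type replicate 2. The number of HoxB genes with a start summit averaged 1.5 in each genotype, and the exact permutation test gave p = 1.

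The summits were spread unevenly along the cluster. The 74.01 kb between Hoxb13 and Hoxb9 hold the microRNA gene Mir196a-1 and the predicted gene Gm53. This interval contained 1 and 3 summits in the stop cassette lists and none in the wild-type lists. Per 10 kb the stop cassette values were 0.135 and 0.405, against 0.298 and 0.406 over the whole genome. The wild-type lists held 0.195 and 0.258 per 10 kb over the genome. The genotype difference in this interval was not tested. At a start of Gm53, stop cassette replicate 1 had a summit at percentile 7.55. Stop cassette replicate 2 had its highest, at 30.3, at a different Gm53 start. The 2 summits lay in separate regions, each held by 1 list. The 50.2 kb from Hoxb9 to Hoxb4 contained 4, 9, 1 and 6 summits in stop cassette replicates 1 and 2 and wild type replicates 1 and 2, which is most of the cluster's summits in each list. The 46.6 kb from Hoxb3 to Hoxb1 contained 0, 2, 0 and 2. The Hoxb13 summits themselves lie just outside the gene and so outside these intervals.

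Summits extended by 250 bp on each side and merged over the lists gave 14 regions in the cluster, of which 9 were held by 1 list, 3 by 2 lists and 2 by 3 lists. None was held by all 4 lists, whereas 32.0% of the 74669 regions of the genome were. Stop cassette replicate 2, the longest list, held 10 of the 14 regions and was the sole holder of 5. Wild type replicate 1, the shortest list, held 1. Without wild type replicate 1, 2 regions were held by all 3 other lists.

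One of these lay over the Hoxb4 UTR and coding exon at chr11:96179671-96180993, with percentiles of 21.6 in stop cassette replicate 1, 53.3 in stop cassette replicate 2 and 57.1 in wild type replicate 2. The Hoxb13 start region at chr11:96055308-96055873 was also held by 3 lists. In both regions the percentiles differed widely between the lists that held them.

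The Hoxb6 intron region at chr11:96155717-96156307 was specific to the stop cassette lists, with percentiles of 36.8 and 53.2. Its highest summit was at the same base, 2267 bp downstream of a Hoxb6 start, in both lists. In the genome 7483 of 74669 regions, or 10%, were specific to stop cassette and 0.313% to wild type, so 1 of 14 and 0 of 14 lay near the background. The shorter stop cassette list held 79083 summits and the longer wild-type list 68471, and the part of list length in this region was not tested. Its highest score was 5.03 in stop cassette replicate 1 and 6.42 in stop cassette replicate 2, so above the pooled median score of 5.83 it remained in the second of these lists only and was no longer specific.

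The microRNA genes of the cluster had no start summit either. Mir10a, next to Hoxb4, had its nearest summits at 1483, 1505, 31701 and 1442 bp in stop cassette replicates 1 and 2 and wild type replicates 1 and 2. Mir196a-1, between Gm53 and Hoxb9, had them at 13651, 3452, 20300 and 13842 bp. The antisense gene Hoxb3os had 1 start summit, in wild type replicate 2 at percentile 2.07, inside Hoxb2.

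In the 200 kb before Hoxb13 the lists held 14, 21, 13 and 13 summits, and 5 of 11 regions were held by all 4 lists. The best ranked region there lay at the start of Atp5g1, which encodes a subunit of ATP synthase, with percentiles of 99.9, 99.3, 97.0 and 97.5. The next was at the start of Ube2z, which encodes a ubiquitin-conjugating enzyme, with 93.2, 96.2, 88.9 and 88.8. Of the 7 protein-coding genes starting there, 4 had a start summit in all 4 lists, which is near the 57.5% of all protein-coding genes. One region, in an Igf2bp1 intron, was specific to stop cassette, with percentiles of 1.60 and 26.2.

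Beyond Hoxb1, the 200 kb held 5, 3, 3 and 2 summits in 5 regions, of which 3 were held by 3 lists and none by 4. Skap1, an adaptor of T cell signalling and the only protein-coding gene starting there, had no start summit. The best ranked region, at chr11:96299970-96300572, is intergenic and had percentiles of 64.7 in stop cassette replicate 1, 58.1 in wild type replicate 1 and 68.6 in wild type replicate 2. It was missing from stop cassette replicate 2, although that list is the longest. Over both flanks the lists held 24.0, 22.3, 30.9 and 21.9 summits per 100000 listed. The stop cassette minus wild-type difference was -3.29, with p = 1 in the exact permutation test, and it was 1.23 without wild type replicate 1.

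The HoxB cluster had fewer summits per length than each of the other Hox clusters in every library. HoxB had 0.287, 0.805, 0.0575 and 0.460 summits per 10 kb in stop cassette replicates 1 and 2 and wild type replicates 1 and 2, a mean of 0.402 ± 0.315 (SD, n = 4). Over the whole genome the lists held 0.298, 0.406, 0.195 and 0.258 per 10 kb, so HoxB was above that level in the replicate 2 lists and below it in the others. The means were 1.26 ± 0.663 for HoxA, 1.17 ± 0.575 for HoxC and 1.42 ± 0.644 for HoxD.

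HoxB minus HoxA was -0.853 ± 0.382 summits per 10 kb, HoxB minus HoxC -0.764 ± 0.394 and HoxB minus HoxD -1.02 ± 0.332 (SD over libraries, n = 4), lower in 4 of 4 libraries each time. The two-sided exact sign-flip permutation test over libraries gave p = 0.125 for each, also after Benjamini-Hochberg adjustment over 3 comparisons, and this is the smallest value 4 libraries allow. Between Hoxb9 and Hoxb1 alone, without the long interval next to Hoxb13, HoxB had 0.413, 1.14, 0.103 and 0.826 per 10 kb. The differences were then -0.636, -0.547 and -0.800, and HoxB was above HoxC in wild type replicate 2, which gave p = 0.25 for HoxC in the exact test.

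**Figure D3:**
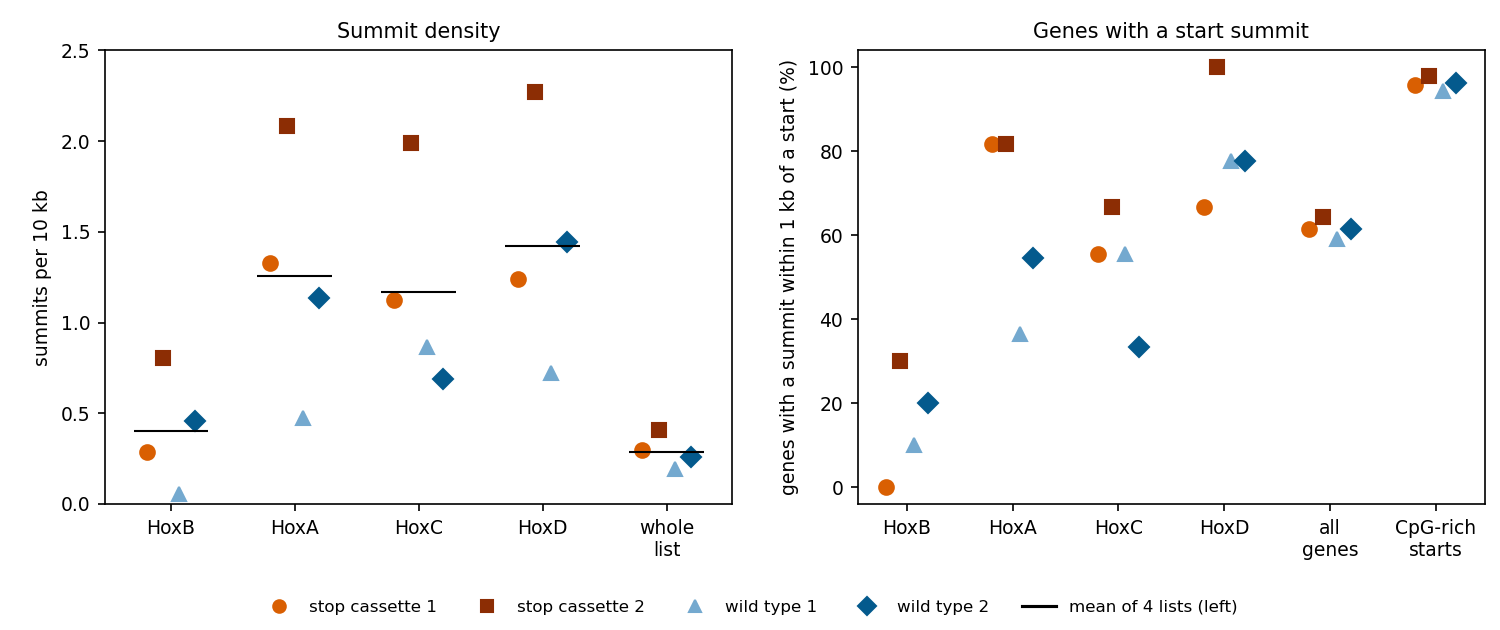
Left, summits per 10 kb in each Hox cluster and over the whole list, with 1 point per list and a bar at the mean of 4 lists. Right, the percentage of genes with a summit within 1 kb of a start, for each cluster, all genes and genes with CpG-rich starts. HoxB lies lowest among the clusters in every list, with means of 0.402 against 1.17 to 1.42 summits per 10 kb.

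HoxB also had the lowest counts at the annotated starts in every list. A start summit was found for 9, 9, 4 and 6 of 11 HoxA genes, 5, 6, 5 and 3 of 9 HoxC genes and 6, 9, 7 and 7 of 9 HoxD genes in the 4 lists. All 4 lists held 4 HoxA, 3 HoxC and 5 HoxD genes and no HoxB gene. No start summit in any list was seen for 7 of 10 HoxB genes, 1 of 11 HoxA genes, 2 of 9 HoxC genes and 0 of 9 HoxD genes. The median start percentile of a HoxB gene, with absent summits as 0, was 0 in every list. The difference was -26.5 ± 20.9 from HoxA and -22.6 ± 15.6 from HoxC, lower in 3 of 4 libraries each, and -34.2 ± 14.7 from HoxD, lower in 4 of 4 (SD, n = 4). The exact sign-flip permutation tests gave p = 0.25, 0.25 and 0.125, and 0.25 for each after Benjamini-Hochberg adjustment. At equal list length the difference from HoxA was 0, since the median HoxA start had no summit there. Counts at first coding bases, in the same order of lists, were 1, 4, 1 and 3 of 10 HoxB genes and 8, 8, 3 and 5 of 11 HoxA genes. For HoxC they were 5, 6, 4 and 2 of 9 genes and for HoxD 6, 8, 6 and 6 of 9. With that choice HoxC, not HoxB, was lowest in wild type replicate 2.

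**Figure D4:**
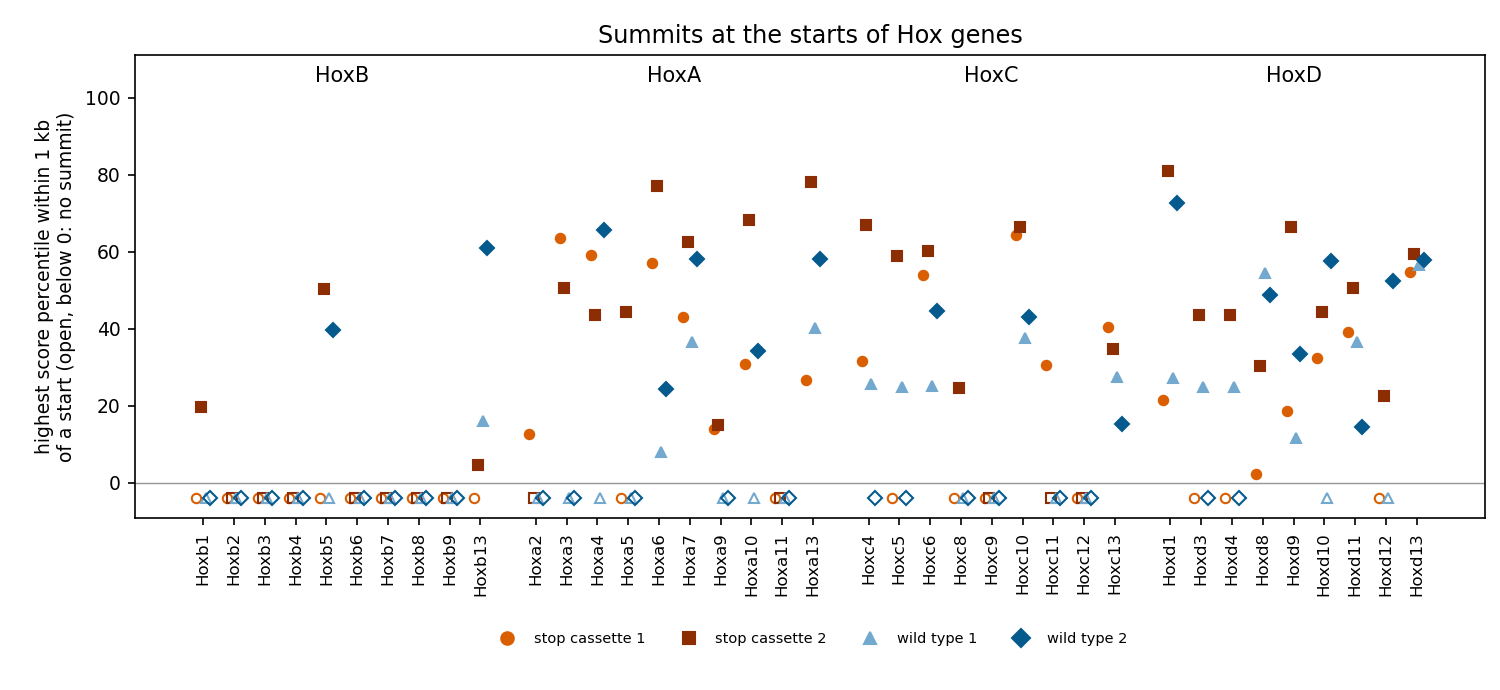
Highest score percentile of a summit within 1 kb of a start for Hox genes, with 1 point per list and gene; open symbols below 0 mark lists with no such summit. The HoxB genes are mostly open symbols, with filled ones at Hoxb1, Hoxb5 and Hoxb13 only, whereas every HoxD gene has at least 1 filled symbol.

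Each HoxB gene was set beside its paralogs, the genes of the same number in the other clusters. The paralog had a start summit in more lists in 18 of 21 pairs, in as many lists in 2 and in fewer in 1, where a HoxB gene can be in up to 3 pairs. The exception was Hoxa5, with 1 list against 2 for Hoxb5. The pairs of Hoxb4 with Hoxa4, Hoxc4 and Hoxd4, in 3, 3 and 2 lists, were all among the 18. They rest on the M1 start of Hoxb4, which had 0 lists. At its first coding base Hoxb4 was in 3 lists, and the pairs were not counted again with that choice. By number of lists the contrast was small in group 13, since Hoxb13 was present in 3 lists and Hoxa13, Hoxc13 and Hoxd13 in 4. Their mean percentiles, with absent summits as 0, were 20.4 for Hoxb13 against 50.8, 29.5 and 57.2. In group 6 the contrast in lists was wide, since Hoxb6 was absent from all lists and Hoxa6 and Hoxc6 were present in 4. The highest mean percentiles in HoxC and HoxD were 52.8 for Hoxc10 and 57.2 for Hoxd13, and the lowest of the other clusters were 0 for Hoxa11, Hoxc9 and Hoxc12 and 17.1 for Hoxd3 and Hoxd4. Hoxd3 and Hoxd4 had the same percentiles in the same lists. They have neighbouring starts at 74564785 and 74565131, so the same summits may count for both. Numbers of annotated starts per gene were not matched between clusters, with 4 for Hoxb3 and 6 for Hoxa3.

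The HoxB genes with CpG-rich starts were not those with start summits. A start was called CpG-rich when the 500 bp on each side had at least 50% GC and an observed over expected CpG ratio of at least 0.6. Hoxb6, Hoxb7, Hoxb8 and Hoxb9 had such a start, and none of the 4 had a start summit within 1 kb in any list. With a distance of 2 kb, Hoxb7 had one in stop cassette replicate 2 and wild type replicate 1. Hoxb4 was classed by its M1 start, with 46.3% GC and a ratio of 0.318. Its RefSeq promoter of 300 bp had 58% GC and a ratio of 0.593. Among all 10940 genes with a CpG-rich start, 95.8%, 97.8%, 94.3% and 96.2% had a start summit in stop cassette replicates 1 and 2 and wild type replicates 1 and 2, 98.3% in at least 1 list and 93.0% in all 4. Of the other 6 HoxB genes, 0, 3, 1 and 2 had one in the same order, against 28.7%, 32.5%, 25.4% and 28.4% of 11425 genes without a CpG-rich start. At least 1 list held 3 of these 6 HoxB genes and 34.1% of such genes, and all 4 lists held 0 and 23.5%. With CpG-rich starts, at least 1 list held 9 of 10 HoxA, 3 of 5 HoxC and 6 of 6 HoxD genes, and all 4 lists held 4, 1 and 5. Without a CpG-rich start, at least 1 list held 1 of 1 HoxA, 4 of 4 HoxC and 3 of 3 HoxD genes. All 4 lists held 0, 2 and 0 of these. In HoxC, too, genes with a CpG-rich start thus had a start summit less often than the others.

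Hoxb9 had the start with the highest CpG ratio of the cluster, with a ratio of 0.853 and 65.6% GC, and yet its nearest summit in any list was 6105 bp away. Hoxb13, the most often listed start, had a ratio of 0.450 and 58.9% GC. The 15 HoxB regions, counting the Hoxb13 start, had a median GC content of 60.2% in the 201 bp around the top summit, against 51.7% for all regions.

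Motifs were searched on both strands in these windows. The MEIS motif TGACAG was in 0 of 15 HoxB windows and 13.5% of all windows, the PBX-HOX motif TGATTNAT in 0 and 2.12%, and a core motif of CTCF in 0 and 10.1%. The retinoic acid response element, 2 direct repeats of AGGTCA with a spacing of 5, was in 0 and 0.00536%. TTTATG, a motif of CDX and posterior HOX factors, was in 2 of 15 and 10.8% of all windows. These 2 windows were the Hoxb13 start, whose sequence is printed above, and an intron of Gm53. TTTATG and TGATTNAT share AT-rich letters and can overlap.

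RefSeq promoters were held for 3 of the 10 genes, Hoxb1, Hoxb4 and Hoxb8, in a table of build GRCm38.p6. TTTATG was in 1 of the 3, Hoxb8, and in 11.9% of all promoters of the same 300 bp length. The Hoxb8 promoter is shown as the example of a start without a listed site, since it holds the motif on both strands within a few bases, in capitals. It matches mm9 exactly at chr11:96142969-96143218, directly upstream of the start.
Hoxb8 promoter: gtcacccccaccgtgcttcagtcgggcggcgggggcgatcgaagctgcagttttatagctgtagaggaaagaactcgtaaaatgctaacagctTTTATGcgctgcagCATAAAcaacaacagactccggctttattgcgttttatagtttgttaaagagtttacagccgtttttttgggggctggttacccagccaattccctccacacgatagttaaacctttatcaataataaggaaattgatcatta
The nearest summit to the start at its end was 12838 bp away in stop cassette replicate 1, 3454 bp in stop cassette replicate 2, 3559 bp in wild type replicate 1 and 2899 bp in wild type replicate 2.

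Genes that work with HoxB proteins or regulate the cluster were counted in the same way. Of 20 cofactors and regulators, 17, 17, 14 and 16 had a start summit in the 4 lists, against 61.5%, 64.4%, 59.0% and 61.5% of all protein-coding genes, and 14 had one in all 4, against 57.5%. They include the retinoic acid receptor gene Rara, with start percentiles of 83.5, 88.6, 79.2 and 84.6. Cdx4, an activator of posterior Hox genes, had no start summit in any list. Cdx1 had one in stop cassette replicate 1 only, at percentile 1.57, and Cdx2 in stop cassette replicate 2 only, at 5.27. Cyp26a1 had one in wild type replicate 2 only, at 27.7.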

How the data were processed

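ATAC-seq was carried out on 4 libraries of limb cells, and the deposited lists hold 1 bp summits called per library, in mm9 per the labels. Column 5 was read as −log10 of a q-value in the lists as deposited, since its minimum of 1.30 in each list corresponds to a q-value of 0.05. Bowtie2 2.2.6 and Picard are named in the submitters' processing notes. Names inside the deposited lists record removal of duplicates and mitochondrial reads and a mapping quality of 30, and there the wild-type libraries share 1 replicate number with sub-numbers. The peak caller, any shift of reads for the transposase and any control are not given in the sources used here.

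Positions were matched to GENCODE M1 on NCBIM37, which is of that build, and of its 21 chromosomes none ended before a listed summit. Starts of all transcripts of a gene were used, within 1 kb, and scores were ranked within each list. Regions were summits extended by 250 bp and merged where they overlapped by at least 1 bp. A region was specific to a genotype when both of its lists and neither of the others held it. The lists are 1 file per sample, with the group taken from the genotype label.

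Genotypes were compared by two-sided exact permutation tests of 2 against 2 libraries, and clusters by exact sign-flip permutation tests over 4 libraries, adjusted by the Benjamini-Hochberg method. Depth is unknown, so the number of libraries limits the precision. Named items were all 10 members, cluster regions held by all 4 lists (none was found) or specific to a genotype, the 2 best shared regions and the specific regions of each flank, the highest and lowest genes of the other clusters, and cofactors without a start summit. Regions held by 3 lists, the best region beyond Hoxb1, and Rara, Cdx1, Cdx2 and Cyp26a1 were named after their values were seen. The members, lists and rules were chosen with earlier results of these data known. Alternatives were equal list length, a score above the pooled median, other start distances, extensions, overlaps, flanks and cluster limits, protein-coding transcripts only, and leaving out each library. First coding bases and clusters widened by 1 kb were added after the data were seen. Region and start calling was run on simulated positions and returned 200 of 200 planted regions of each genotype. These positions lay far apart and each planted region was in every list of its genotype, so full recovery was built in. The run checks the code only and cannot show how calls fare in real lists with missing summits. Python 3.11.15, numpy 2.4.6 and pandas 2.3.3 were used. Some items that these rules name are not reported here.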

Additional observations from a re-analysis of the deposited data

How the results depend on the processing

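The mean HoxB density over libraries stayed below HoxA, HoxC and HoxD under every alternative run, from -1.13 to -0.227 against HoxD, the widest range. Single libraries did not always follow. Between Hoxb9 and Hoxb1 alone, wild type replicate 2 had 0.826 summits per 10 kb against 0.691 in HoxC. With every list reduced to 51701 summits, the stop cassette minus wild-type difference in cluster summits per 100000 listed was -2.90, that in genes with a start summit -1.5, the cluster held 7 regions and the median start percentile differed from HoxA by 0; fewer summits remained by construction. Above the pooled median score, 3 regions remained and 0 were specific to stop cassette. The difference in genes with a start summit was -0.5 at 500 bp, 1 at 2 kb, -0.5 with protein-coding transcripts only and 0.5 with first coding bases. The cause of these shifts was not tested. Leaving out 1 library at a time gave -2.03 to 7.72 for cluster summits per 100000 (negative, at -0.487, without stop cassette replicate 2 and, at -2.03, without wild type replicate 1), -7.81 to 1.23 for the flanks (1.23 without wild type replicate 1), -1.5 to 1.5 for start genes and -12.9 to 1.19 for the median percentile (1.19 without wild type replicate 2). Regions then numbered 9 to 14, those in all remaining lists 0 to 2, those specific to stop cassette 1 to 6 and to wild type 0 to 3; specific regions then need only 1 list of the reduced genotype. Hoxb4 gained a start summit at 2 kb and Hoxb2 and Hoxb7 at 2 kb, with mean percentiles of 23.1, 6.22 and 7.66, and Hoxb4 had 33.0 at first coding bases. At equal length Hoxb5 was listed in wild type replicate 2 only and Hoxb13 in both wild-type lists.

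Same-numbered libraries deviated together only weakly, with a correlation of 0.181 over 23894 regions held by all lists, and they share only a number. With the replicate number as a block, the difference in cluster summits per 100000 stayed 2.84 with exact sign-flip permutation p = 0.5, the smallest value 2 pairs allow, and the flank difference of -3.29, the start gene difference of 0 and the median percentile difference of -5.83 each had p = 1. The lists hold only summits past a threshold, so a gene without a summit was not listed at this depth, which does not show that its start was closed.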
